A study of Mus musculus with 20 samples.

Results

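The mitochondrial ribosomal protein genes were taken as the protein-coding genes of the count table whose symbol begins with Mrpl or Mrps followed by a digit. There were 78 of them among 56748 genes in the table, 49 with an Mrpl name and 29 with an Mrps name, on 17 chromosomes. Their transcripts were measured by RNA sequencing of livers from mice fasted for 24 h, in 20 libraries that fell into 5 groups of 4. The Control group carried floxed alleles of Cpt1a, Cpt1b and Cpt2, the carnitine palmitoyltransferases that bring long-chain fatty acids into mitochondria. By label, the Cpt1DKO group lacked Cpt1a and Cpt1b in the liver, the Cpt2KO group lacked Cpt2, and the TKO group lacked all of these. The Cpt2PparaDKO group lacked Cpt2 together with a gene that the sample label gives as PPAR and the series text as Ppara, the nuclear receptor that drives fatty acid oxidation genes in fasting. The knockouts were described as liver-specific, and the sources used here name no Cre driver, sex or age. The series text calls the controls littermates, while the labels give 1 triple floxed genotype for all of them, so a difference of line between Control and a mutant group cannot be told apart from the genotype. All mutants were set against these same Control libraries. The labels do not say that the 4 libraries of a group came from separate animals, so the p-values measure the spread between libraries, which may be technical.

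The mitochondrial ribosome translates the few messenger RNAs made from mitochondrial DNA, which encode core subunits of the respiratory chain and of ATP synthase. Its ribosomal RNAs come from mitochondrial DNA, while its proteins are encoded in the nucleus, made in the cytosol and imported. Some of these proteins have a counterpart in bacterial ribosomes and others are specific to mitochondria. By known position, 51 of the 78 genes encode large subunit proteins, 30 with a bacterial counterpart and 21 specific to mitochondria, and these include Mrps30 and Mrps18a despite their names. A further 26 encode small subunit proteins, 16 with a counterpart and 10 without, and Mrps36 encodes a component of the oxoglutarate dehydrogenase complex that keeps its ribosomal name.

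Total counts ran from 14129595 to 20273303 in 19 libraries and reached 36452673 in Cpt2PparaDKO replicate 1, and the members took 31314 to 84188 counts per library. All 8 hepatocyte markers, Alb and Apoa1 among them, were above 1 CPM (counts divided by library depth, here adjusted by the trimmed mean of M-values, TMM) in every group. Their summed level ranged from 86458 to 107721 CPM in Control, 85126 to 94462 in Cpt1DKO, 49195 to 79020.1 in Cpt2KO, 41058 to 74839 in TKO and 39259 to 44158 in Cpt2PparaDKO. Among 5 cholangiocyte markers, 2 fell in Cpt2KO and in TKO, and their summed level was 29.7 to 35.4 CPM in Control, 7.61 to 15.03 in Cpt2KO and 10.7 to 20.5 in TKO. Cpt1a was lower where Cpt1 loss was labelled (log2 fold change -2.74 in Cpt1DKO and -2.92 in TKO), Cpt2 was lower in Cpt2KO (-0.92), TKO (-1.27) and Cpt2PparaDKO (-2.88), and Ppara was lower in Cpt2PparaDKO (-1.67). Cpt1b goes against the labelled loss in TKO: its level was 0.293 to 0.763 CPM in Control, 0.62 to 1.11 in Cpt1DKO, 1.499 to 5.28 in Cpt2KO and 2.38 to 3.03 in TKO. Against Control its log2 fold change was 0.71 in Cpt1DKO (adjusted p = 0.34 by edgeR), and it rose in TKO (2.37, adjusted p = 0.00011) and in Cpt2KO (2.86). Counts from outside a deleted stretch would not show a loss, and where Cpt1b was deleted is not stated, so TKO and Cpt1DKO stand for libraries labelled so throughout, and loss of Cpt1b in them is as labelled. Cpt2KO replicate 3 and Cpt2PparaDKO replicate 4 had a female expression pattern, and the other 18 libraries did not. Cpt2KO and Cpt2PparaDKO therefore held libraries of more than 1 animal, and for the other groups this pattern does not tell. Cpt2KO replicate 2 stood apart in the level of the members, as given below.

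Of the 78 genes, 77 passed the filter on low counts, among 15669 genes tested. Mrpl53, a large subunit protein specific to mitochondria, had 0 counts in all 20 libraries, and its span overlaps the gene model Gm42688. Of the 77, 27 overlap another gene with a mean count of 10 or more. The counting is not stated to use strand, nor how reads shared with processed pseudogenes were treated, so such counts can hold reads of another gene. Per kilobase of annotated gene length, the level in Control ranged from 1.38 ± 0.20 CPM per kilobase for Mrps25 to 81.6 ± 4.87 for Mrpl12 (SD, n = 4). The span was 59.3-fold, with a median of 10.4 over the 77 genes. How this length relates to the transcripts present in these livers was not tested, so the order can in part reflect the annotation. Mrpl12, a protein of the flexible stalk that contacts translation factors, stood first, followed by Mrpl34 (49.7), Mrpl14 (49.3), Mrpl2 (42.3) and Mrpl27 (39.8). At the low end, Mrps25 was followed by Mrpl19 (2.02), Mrps30 (2.05), Mrpl33 (2.30) and Mrpl48 (2.70). Mrpl34 and Mrpl14, and likewise Mrpl19 and Mrps30, differed by less than 1 SD. The median coefficient of variation over the 4 libraries of a group was largest in Cpt2KO (17.7%), and was 7.98% in Control, 8.01% in TKO and 10.1% in both Cpt1DKO and Cpt2PparaDKO.

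RefSeq promoter windows (GRCm38.p6, 250 bases before to 50 after a start site) were matched for 69 of the 78 genes, in 75 windows. The core motif of NRF1, a regulator of nuclear genes for mitochondrial proteins, was searched on both strands as GCGCA and GCGC with 1 base of any kind between them, and lay in 17.3% of the members' windows and in 4.6% of all 32851 windows. The core of the ETS family, to which GABPA belongs (CCGGAAG), lay in 34.7% and 8.86%, the YY1 core (AAGATGGCG) in 10.7% and 1.4%, and the Sp1 core (GGGCGG) in 52% and 35.7%. The PPAR element, searched as a pair of AGGTCA runs with 1 base of any kind between them, lay in 0 of 75 member windows and in 0.0396% of all. Only 13 of 32851 windows held this exact pair, so the 0 cannot set the members apart from other genes. A single AGGTCA lay in 14.7% and 16.3%. The members' windows were richer in G and C, with a median of 58.7% against 52.7% for all, and motifs of this composition were not compared at matched content. Matches describe letters in a window and show no binding. The upstream stretches of 3 members, picked by their changes in the comparisons below, are printed as examples. They are Mrpl17, the member that rose most (chr7:105811100-105811337, minus strand), Mrpl12, which fell in Cpt2PparaDKO (chr11:120484387-120484612, plus strand), and Mrps25, which fell in Cpt2KO and TKO (chr6:92184034-92184273, minus strand). Whether motifs go with the changes of the members was not tested. Capitals mark the motifs on either strand: 1 NRF1, 1 ETS and 3 Sp1 matches in Mrpl17, where the ETS match overlaps an Sp1 match, 1 NRF1 match in Mrpl12 and none in Mrps25.
Mrpl17: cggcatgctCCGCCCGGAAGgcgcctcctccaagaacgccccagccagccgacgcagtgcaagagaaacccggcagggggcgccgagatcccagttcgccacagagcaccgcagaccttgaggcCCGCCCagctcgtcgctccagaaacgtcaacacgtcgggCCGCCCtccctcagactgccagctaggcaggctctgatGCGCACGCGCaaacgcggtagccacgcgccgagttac
Mrpl12: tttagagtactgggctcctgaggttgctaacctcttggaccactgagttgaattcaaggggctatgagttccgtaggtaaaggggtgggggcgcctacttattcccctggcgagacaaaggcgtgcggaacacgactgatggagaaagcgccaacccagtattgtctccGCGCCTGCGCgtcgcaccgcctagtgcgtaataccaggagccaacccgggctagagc
Mrps25: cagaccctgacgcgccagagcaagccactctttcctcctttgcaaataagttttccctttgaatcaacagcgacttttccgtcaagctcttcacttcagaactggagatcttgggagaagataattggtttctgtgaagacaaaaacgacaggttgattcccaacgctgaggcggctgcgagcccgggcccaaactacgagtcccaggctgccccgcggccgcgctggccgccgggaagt

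Mrpl17, a large subunit protein with a bacterial counterpart (ENSMUSG00000030879, GRCm39 chromosome 7, 105452413 to 105460306, minus strand), was the member whose level differed most between groups. Its level in the 4 Control libraries was 66.7, 70.3, 62.3 and 71.6 CPM. In Cpt1DKO it was 109, 104, 108 and 111 CPM, and in TKO 128, 124, 129.9 and 137 CPM. The Cpt1DKO and TKO libraries lay above every Control library and did not overlap each other. In Cpt2KO the level was 135, 213, 155 and 158 CPM, with replicate 2 highest, and in Cpt2PparaDKO it was 71.2, 77.97, 77.6 and 80.8 CPM. The Cpt2KO libraries overlapped those of TKO through replicate 1, and lay above all libraries of Control, Cpt1DKO and Cpt2PparaDKO.

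Against Control, Mrpl17 rose 1.59-fold in Cpt1DKO (log2 fold change 0.67 ± 0.11 SE, adjusted p = 0.0016), 2.44-fold in Cpt2KO (1.29 ± 0.11, adjusted p = 8.8e-08) and 1.92-fold in TKO (0.94 ± 0.11, adjusted p = 6e-06), by edgeR's quasi-likelihood test with Benjamini-Hochberg adjustment over all genes tested. In Cpt2PparaDKO the log2 fold change was 0.18 ± 0.11 (adjusted p = 0.23). Cpt2PparaDKO was lower than Cpt2KO by 1.10 ± 0.11 on the log2 scale (adjusted p = 3.6e-07). Cpt2KO was higher than Cpt1DKO by 0.61 ± 0.11 (adjusted p = 0.0013), whereas TKO differed from Cpt1DKO by 0.26 ± 0.11 (adjusted p = 0.19) and from Cpt2KO by -0.35 ± 0.11 (adjusted p = 0.31). The order of the means was thus Control (67.7), Cpt2PparaDKO (76.9), Cpt1DKO (108), TKO (129.7) and Cpt2KO (165), in which only the step from Cpt2PparaDKO to Cpt1DKO was not tested and no other step between neighbours passed the test. The rise with Cpt2 loss was smaller where Cpt1a and Cpt1b were also labelled as lost, with an interaction of -1.02 ± 0.16 (adjusted p = 0.0016). Each of these calls held in all alternatives run, total-count scaling and leaving out any 1 library included, and without Cpt2KO replicate 2 the difference of Cpt2KO from Control stayed at 1.14.

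**Figure D1:**
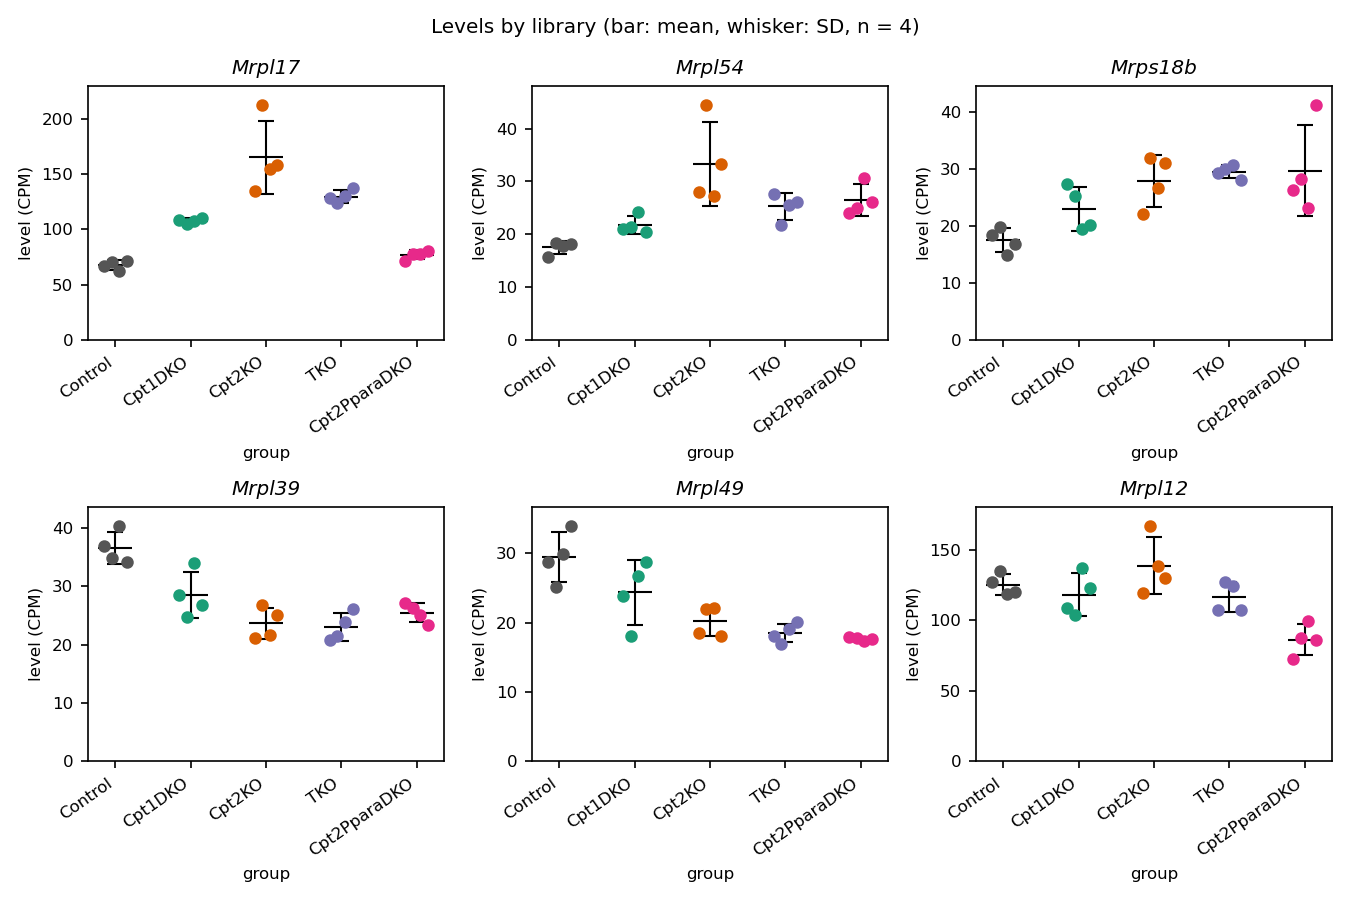
Level in CPM (linear axis from 0) of 6 members in each of the 20 libraries by group, as points, with the group mean as a bar and the SD as whiskers (n = 4). Mrpl17 in Cpt2PparaDKO (71.2 to 80.8) lies near Control, Mrpl39 is below Control in all Cpt2-lacking groups, and Mrpl12 is lowest in Cpt2PparaDKO.

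The comparison of Cpt1DKO with Control addressed loss of the outer membrane transferases alone. Mrpl17 was the 1 member that rose and Mrpl18 and Mrps27 were the 2 that fell, so 3.9% of the 77 members were called against 5.55% of all genes tested (2.44% higher, 3.1% lower). The median log2 fold change of the members was -0.03, beside -0.01 for all genes. Mrpl18, a large subunit protein with a bacterial counterpart, had 38.1, 43.3, 39.4 and 44.2 CPM in Control and 29.1, 27.1, 34.0 and 28.7 CPM in Cpt1DKO (-0.47 ± 0.13, adjusted p = 0.041 by edgeR). Mrps27, a small subunit protein specific to mitochondria, had 18.6, 25.2, 23.9 and 21.01 CPM in Control and 17.3, 10.9, 16.8 and 17.8 CPM in Cpt1DKO (-0.50 ± 0.14, adjusted p = 0.045 by edgeR), with replicate 2 lowest. Neither pair of groups overlapped, but the Mrpl18 call was lost without any 1 of the 4 Control libraries or of Cpt1DKO replicates 1, 2 and 4, and the Mrps27 call without replicate 2, 3 or 4 of Control or replicate 1 or 2 of Cpt1DKO, with adjusted p-values reaching 0.14 and 0.174. Mrpl18 overlaps Tcp1, a chaperonin subunit with a mean count of 3562, so its counts can hold reads of that gene.

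Where Cpt2 alone was lost, members moved both ways. Against Control, 12 members rose and 8 fell, 26.0% called against 33.4% of all genes (16.2% higher, 17.2% lower), and the other 57 did not pass the test. The median was 0.06 beside -0.01 for all genes, and 65 of the 77 members lay within 0.5 of 0 on the log2 scale. In this and the next comparisons, fewer cells of a type and less RNA per cell cannot be told apart in bulk tissue, and 4 of 8 hepatocyte markers fell here. All 3 erythroid markers tested were called, 2 higher and 1 lower, and the erythroid list summed to 116 to 248 CPM in Control and 152 to 518 in Cpt2KO. The part of these markers in the result was not tested.

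After Mrpl17, the largest rise in Cpt2KO was in Mrpl54, a large subunit protein specific to mitochondria. Its level was 15.6, 18.4, 17.8 and 18.1 CPM in Control and 27.9, 44.5, 27.3 and 33.3 CPM in Cpt2KO, with no overlap (0.93 ± 0.14, adjusted p = 3.2e-05 by edgeR). Mrps18b, a small subunit paralog of bacterial S18, had 18.5, 19.7, 14.9 and 16.7 CPM in Control and 22.0, 31.9, 26.6 and 31.0 CPM in Cpt2KO (0.68 ± 0.16, adjusted p = 0.003 by edgeR). All Cpt2KO libraries of Mrps18b lay above all Control libraries. Mrps28 (0.66) and Mrps6 (0.61), small subunit proteins with bacterial counterparts, Mrps18a (0.58), the S18 paralog of the large subunit, and Mrpl52 (0.58), Mrpl51 (0.52), Mrps34 (0.49), Mrpl33 (0.42), Mrps2 (0.42) and Mrps23 (0.29) also rose. Of the 3 S18 paralogs, Mrps18c was at -0.07 and did not pass the test (adjusted p = 0.76).

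The largest fall in Cpt2KO was in Mrps25, a small subunit protein specific to mitochondria and the member with the lowest level per kilobase among those tested. Its level was 8.63, 8.51, 11.03 and 8.02 CPM in Control and 2.90, 7.51, 5.43 and 3.92 CPM in Cpt2KO (-0.86 ± 0.22, adjusted p = 0.0044 by edgeR), with replicate 2 closest to Control and no overlap. Mrpl39, a large subunit protein without a bacterial counterpart, had 36.9, 34.8, 40.3 and 34.1 CPM in Control and 21.1, 26.7, 21.6 and 25.1 CPM in Cpt2KO, also without overlap (-0.63 ± 0.12, adjusted p = 0.00029 by edgeR). Mrps27 (-0.58), Mrpl49 (-0.54), Mrpl18 (-0.47), Mrpl34 (-0.42), Mrps31 (-0.35) and Mrpl22 (-0.34) fell as well. Mrpl49, Mrps25, Mrps34 and Mrps6 overlap Syvn1, Nr2c2, Mapk8ip3 and Slc5a3, in that order, so their counts can hold reads of those genes.

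Without Cpt2KO replicate 2, 7 members rose and 11 fell, and without Control replicate 2, 5 fell. Calls were lost without single libraries for Mrpl33 (Control replicate 1, Cpt2KO replicate 2 or 4), Mrps34 (Control replicate 1 or 3, Cpt2KO replicate 2), Mrps6 (Control replicate 1, 2 or 4, Cpt2KO replicate 2 or 4), Mrps2 (Cpt2KO replicate 4), Mrps31 (Control replicate 2) and Mrpl34 (any Control library, Cpt2KO replicate 3 or 4). With libraries scaled by total count alone, where the median of all genes was 0.20, 31 members rose, 3 fell and the median was 0.27. In that setting 37.1% of all genes were called (4074 higher, 1736 lower).

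**Figure D2:**
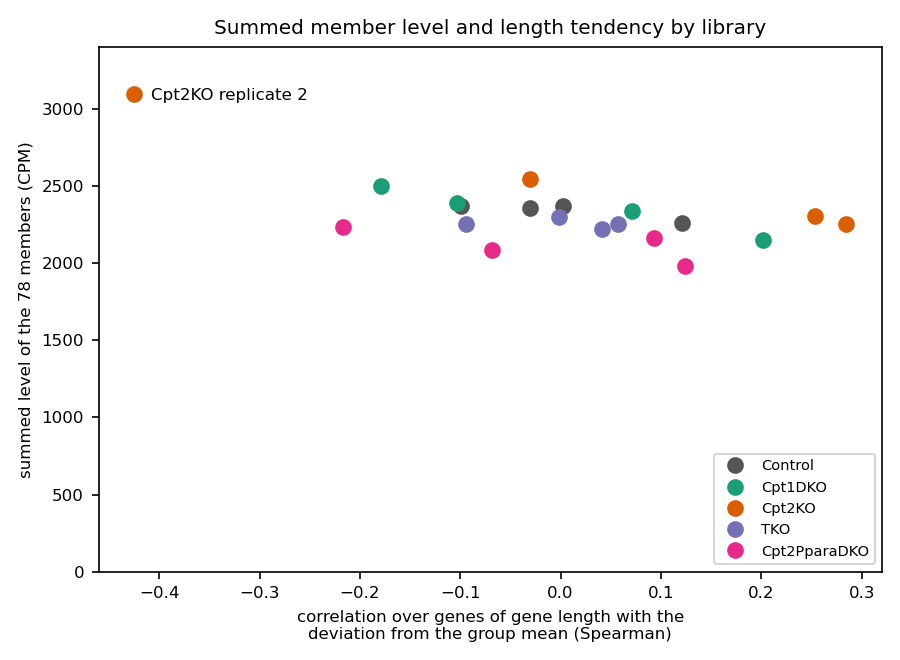
Summed level of the 78 members in CPM (vertical axis from 0) in each library against the Spearman correlation, over genes, of gene length with the library's deviation from its group mean (horizontal axis), with colours for groups. Cpt2KO replicate 2 stands apart from the other 19 libraries on both axes.

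Cpt2KO replicate 2 stood apart from the rest of its group. The members' summed level was 3098 CPM in Cpt2KO replicate 2 and 2251 to 2546 CPM in the other 3 libraries of its group. The group means were 2550 ± 387 CPM in Cpt2KO, 2344 ± 147 in Cpt1DKO, 2340 ± 53.8 in Control, 2255 ± 33.3 in TKO and 2115 ± 107 in Cpt2PparaDKO (SD, n = 4). In replicate 2, shorter genes were above and longer genes below the group mean, with a Spearman correlation of -0.42 over 9953 genes beside -0.22 to 0.28 in the other 19 libraries, and the summed level of the cytosolic ribosomal proteins was the highest of the group (29326 CPM). How much of the members' level in this library goes with gene length was not tested. As a share of raw counts the members took 0.256% in Cpt2PparaDKO, 0.254% in Cpt2KO, 0.231% in TKO, 0.218% in Cpt1DKO and 0.202% in Control, an order that differs from that of the scaled levels.

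The TKO group was labelled as lacking Cpt1a and Cpt1b along with Cpt2. Against Control, 4 members rose and 14 fell, 23.4% called against 27.4% of all genes (13% higher, 14.4% lower), and the median was -0.10. With total-count scaling the median became 0.13, where that of all genes was 0.24, and 18 members rose and 3 fell. In that setting 34.5% of all genes were called (4088 higher, 1312 lower). The 4 risers on the TMM scale were Mrpl17 (0.94), Mrps18b (0.76), Mrpl54 (0.53) and Mrps2 (0.50), the last a small subunit protein with a bacterial counterpart. Mrps18b had 29.3, 30.1, 30.6 and 28.1 CPM in TKO, a narrow band above all Control libraries (adjusted p = 0.0016 by edgeR). Mrps2 had 44.5, 37.3, 34.1 and 35.1 CPM in Control and 56.7, 57.6, 50.6 and 48.6 CPM in TKO, without overlap (adjusted p = 0.0051 by edgeR).

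The falls in TKO were led by Mrps25 (-0.84), with 5.76, 4.52, 4.99 and 4.94 CPM against 8.02 to 11.03 in Control (adjusted p = 0.0068 by edgeR). Mrpl49 followed (-0.67, adjusted p = 0.00064 by edgeR), with 28.8, 25.1, 30.0 and 33.9 CPM in Control and 18.1, 16.9, 19.03 and 20.04 CPM in TKO, and then Mrpl39 (-0.66, adjusted p = 0.00025 by edgeR). These groups did not overlap. Mrps27 (-0.56), Mrpl34 (-0.54), Mrpl18 (-0.54), Mrpl27 (-0.45) and Mrps31 (-0.41) also fell, with Mrps21, Mrpl28, Mrpl22, Mrps15, Mrpl32 and Mrps5 between -0.53 and -0.27. The number that fell was 8 without Control replicate 2, 9 without replicate 3, 8 without replicate 4 and 9 without TKO replicate 4. The Mrpl34 call was lost without Control replicate 2, and the Mrpl27 call without Control replicate 2, 3 or 4 or TKO replicate 1, 3 or 4. In this comparison 3 of 8 hepatocyte markers fell.

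In Cpt2PparaDKO most of the called members fell. Against Control, 4 rose and 18 fell, 28.6% called against 32.5% of all genes (14.9% higher, 17.6% lower), with a median of -0.14. With total-count scaling the median became 0.35, where that of all genes was 0.48, and 42 members rose and 0 fell. In that setting 54.0% of all genes were called (7439 higher, 1015 lower). The falls are therefore relative to the TMM scale, on which the median of all genes was 0.00. Mrpl49 (-0.73, adjusted p = 0.00022 by edgeR) had 18.0, 17.8, 17.4 and 17.7 CPM, all below the lowest Control library. Mrpl34, a small basic protein of the large subunit, had 30.5, 33.5, 29.6 and 27.0 CPM in Control and 17.0, 18.8, 24.0 and 12.9 CPM in Cpt2PparaDKO (-0.73, adjusted p = 0.0013 by edgeR). Mrpl18 (-0.68), Mrps7 (-0.57), Mrpl12 (-0.54), Mrpl39 (-0.52), Mrpl14 (-0.47) and Mrpl45 (-0.46) followed, and Mrpl14 and Mrpl45 were at 0.0090 and 0.029 with total-count scaling. The other 10 that fell (Mrpl28, Mrps21, Mrpl36, Mrpl4, Mrpl22, Mrpl15, Mrps24, Mrpl55, Mrpl13 and Mrps5) lay between -0.51 and -0.23.

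The 4 members that rose in Cpt2PparaDKO were Mrps18b (0.77, adjusted p = 0.0012 by edgeR), Mrpl54 (0.60, adjusted p = 0.0023), Mrps28 (0.46, adjusted p = 0.019) and Mrps18a (0.39, adjusted p = 0.048). Mrps18b had 26.2, 28.3, 23.1 and 41.3 CPM in these libraries, with replicate 4 highest and all above Control. Mrpl54 had 24.0, 24.96, 30.7 and 26.0 CPM, also all above Control. In this comparison 7 of 8 hepatocyte markers fell and 4 of 7 stellate cell markers rose (summed 182 to 213 CPM in Control and 246 to 284 in Cpt2PparaDKO), and macrophage markers summed to 136 to 265 CPM and 260.4 to 307 CPM. Of 3 neutrophil markers tested 1 rose, and the neutrophil list summed to 2.28 to 5.09 CPM in Control and 5.29 to 8.70 in Cpt2PparaDKO, with Ly6g at 0 in both groups. The part of these in the result was not tested. Without the low count filter 8 members fell, and without both female libraries 10 did. The number that fell was 9 without Control replicate 2, 10 without replicate 3 or 4, 7 without Cpt2PparaDKO replicate 1 and 10 without replicate 4, and 2 rose without Control replicate 3. The Mrps28 call was lost without Control replicate 3, the Mrps18a call without Control replicate 1, 3 or 4 or Cpt2PparaDKO replicate 1 or 4, and the Mrpl14 call without any 1 Control library or Cpt2PparaDKO replicate 1 or 4.

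**Figure D3:**
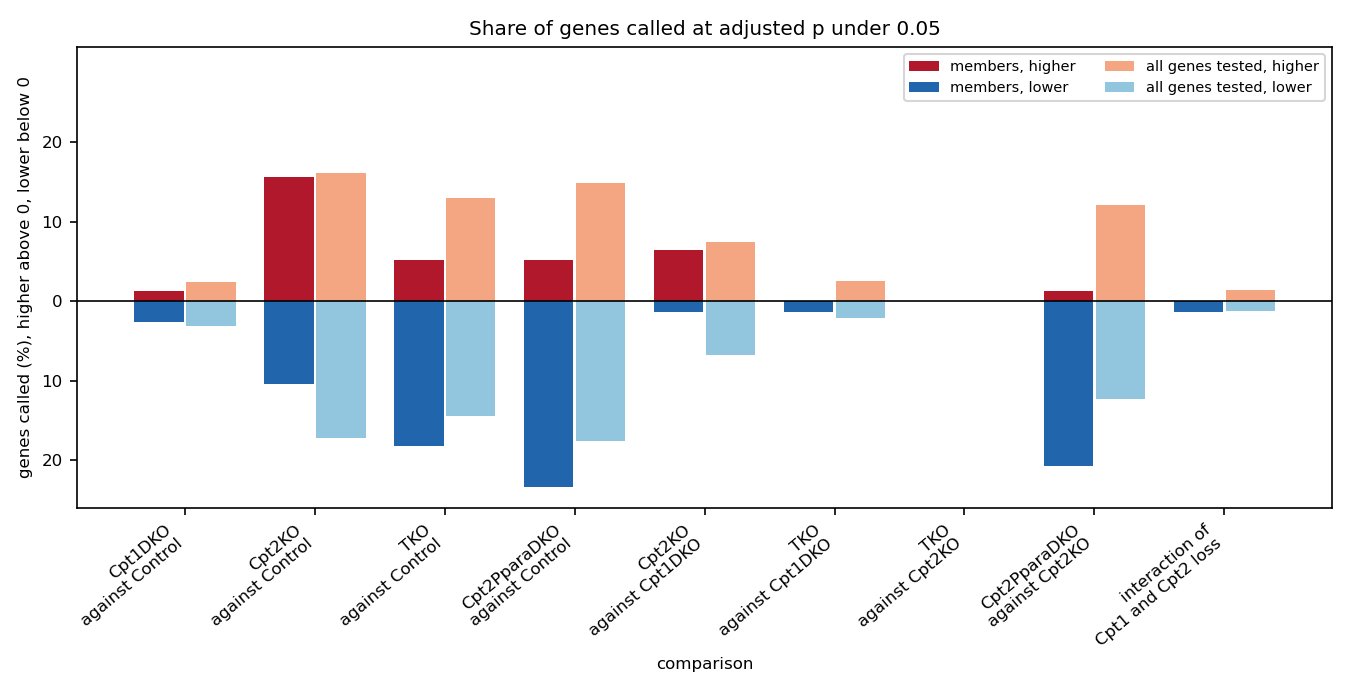
Share of the 77 members (dark bars) and of all 15669 genes tested (light bars) called higher (above 0) and lower (below 0) in each comparison, in percent. In Cpt2PparaDKO against Cpt2KO, 16 members fell and 1 rose, and in TKO against Cpt2KO no member was called. With total-count scaling the first split was 2 and 9, where 32.9% of all genes were called.

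Loss of Ppara on top of Cpt2 was read from Cpt2PparaDKO against Cpt2KO. All 4 targeted genes, Ppara, Cpt2, Cpt1a and Cpt1b, were called lower in this comparison (median -1.91). A difference in the level of Cpt2 or Cpt1 transcripts therefore cannot be told apart from the added loss of Ppara. Here 16 members fell and 1 rose, 22.1% called against 24.4% of all genes (12.1% higher, 12.2% lower), and the median was -0.21. With total-count scaling the median became 0.06, where that of all genes was 0.29, and 9 members rose and 2 fell. In that setting 32.9% of all genes were called (4164 higher, 997 lower). With the compared groups alone 4 fell and 0 rose, without the low count filter 8 and 0, and with the length trend removed 8 and 3. Of 8 hepatocyte markers 3 fell and 1 rose here, 3 of 7 stellate cell markers and 2 of 3 neutrophil markers tested rose, and their part in the result was not tested. Mrpl17 fell most (-1.10), followed by Mrpl12 (-0.68 ± 0.13, adjusted p = 0.00039 by edgeR). Mrpl12 had 119, 166, 139 and 129.6 CPM in Cpt2KO, 127, 135, 119 and 119.7 CPM in Control and 72.3, 87.0, 99.7 and 86.0 CPM in Cpt2PparaDKO. The Cpt2PparaDKO libraries lay below those of every other group, which spanned 103 to 166 CPM. Mrpl51, a large subunit protein specific to mitochondria, had 55.6, 90.3, 57.1 and 67.7 CPM in Cpt2KO and 44.2, 44.7, 49.8 and 47.1 CPM in Cpt2PparaDKO (-0.54, adjusted p = 0.0029 by edgeR), which overlapped Control (42.9 to 52.5).

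Mrpl43 (-0.54), Mrps34 (-0.54), Mrpl14 (-0.47), Mrps2 (-0.36) and Mrps7 (-0.35) fell too, with Mrpl36, Mrpl55, Mrpl13, Mrpl11, Mrps33, Mrpl4, Mrpl20 and Mrps10 between -0.52 and -0.34. Mrpl43 overlaps Twnk, the mitochondrial DNA helicase gene. Mrps31, a small subunit protein specific to mitochondria, was the 1 member that rose (0.28, adjusted p = 0.044 by edgeR), with 24.1, 29.9, 29.3 and 28.7 CPM in Cpt2KO and 31.8, 33.5, 38.6 and 32.1 CPM in Cpt2PparaDKO. It did not differ from Control in Cpt2PparaDKO by the test (-0.07, adjusted p = 0.6). The number that fell was 8 without Cpt2KO replicate 2, 9 without Cpt2PparaDKO replicate 1 and 10 without replicate 2, and without Cpt2KO replicate 2 there were 3 that rose. The calls of Mrps2, Mrps7, Mrpl14 and Mrps34 were lost without Cpt2KO replicate 2 among others, and the Mrps31 call without Cpt2KO replicate 1, 3 or 4 or Cpt2PparaDKO replicate 1, 2 or 3.

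**Figure D4:**
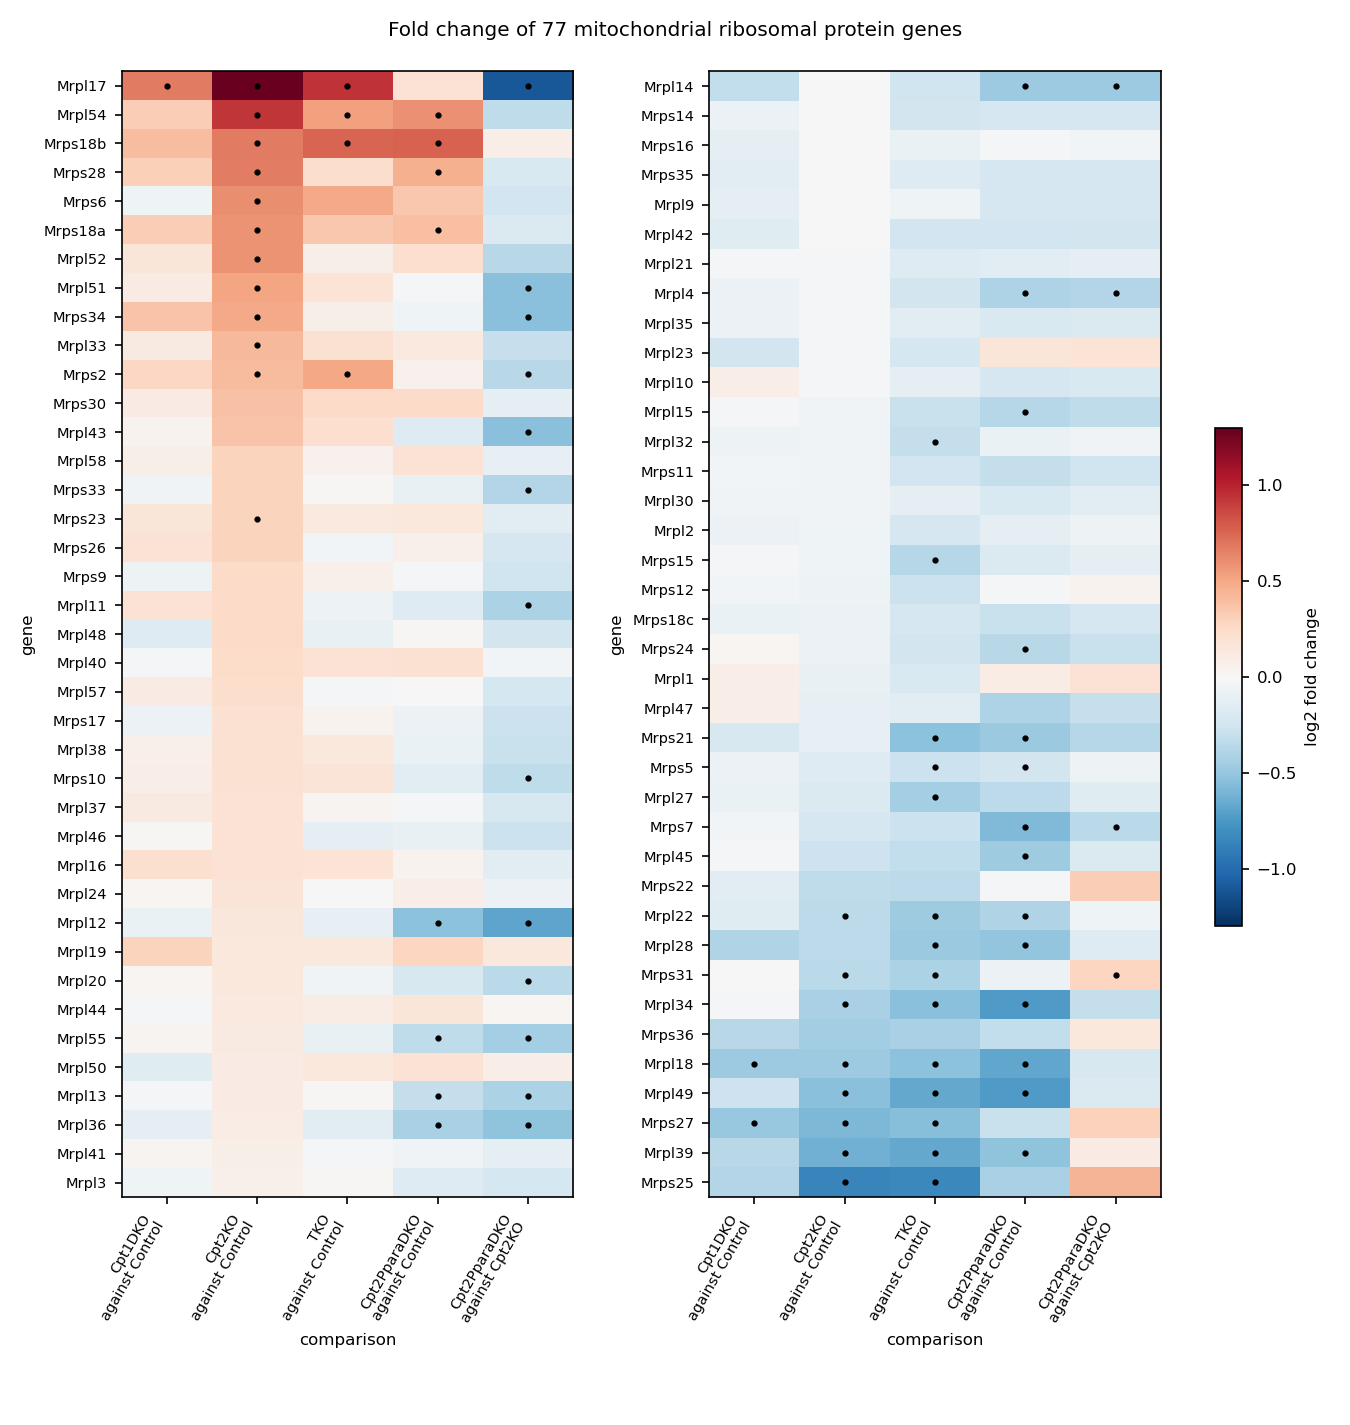
Log2 fold change (colour, red higher and blue lower, TMM scale) of the 77 tested members in 5 comparisons, in 2 columns ordered by Cpt2KO against Control, with a dot where the adjusted p is under 0.05. Mrpl17 is red in 3 comparisons with Control and blue in Cpt2PparaDKO against Cpt2KO. With total-count scaling the column of Cpt2PparaDKO against Control has 42 higher calls and 0 lower. In that setting 54.0% of all genes tested were called (7439 higher, 1015 lower).

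The enzyme that was lost was compared directly in the remaining contrasts. In Cpt2KO against Cpt1DKO, Mrps6 (0.66), Mrpl54 (0.61), Mrpl17 (0.61), Mrpl51 (0.41) and Mrpl48 rose and Mrps31 fell (-0.34), 7.79% of members called against 14.1% of all genes (7.41% higher, 6.71% lower), with a median of 0.10. With the compared groups alone, and likewise without the low count filter, 2 rose and 0 fell, and without both female libraries 12 rose. Without Cpt2KO replicate 2, 2 rose and 3 fell, the median was -0.0045, and of the calls named here those of Mrpl17 and Mrpl54 were kept in every fit that left out 1 library. In TKO against Cpt1DKO the 1 member called was Mrps31 (-0.40, adjusted p = 0.024 by edgeR), 1.3% against 4.65% of all genes (2.6% higher, 2.06% lower), with 38.1, 36.5, 33.2 and 34.3 CPM in Cpt1DKO and 27.4, 28.2, 25.7 and 26.1 CPM in TKO. These groups did not overlap, and the call was lost without Cpt1DKO replicate 1 or 4 or TKO replicate 1, 3 or 4.

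In TKO against Cpt2KO edgeR called 0 members, as did DESeq2, and edgeR called 0.0511% of all genes (0.0319% higher, 0.0191% lower). An unadjusted p under 0.05 by edgeR was reached by 15 of the 77 members and by 1690 of the 15669 genes tested. The median was -0.15, and -0.063 without Cpt2KO replicate 2, and with that library 71 of 77 members had a negative value. The interaction of Cpt1 and Cpt2 loss was called for Mrpl17 alone, 1.3% of members against 2.7% of all genes (1.42% higher, 1.28% lower).

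Grouped by position, members of both subunits were among those called. Against Control in Cpt2KO, 6 of 50 large subunit members rose and 5 fell, and 6 of 26 small subunit members rose and 3 fell. In that order 22% and 34.6% were called, beside 33.4% of all genes. In Cpt2PparaDKO 2 of 50 rose and 14 fell, and 2 of 26 rose and 4 fell. Here 32% and 23.1% were called, beside 32.5% of all genes, and with total-count scaling 0 members fell. Mrpl10, the stalk base, Mrps12, a protein of the decoding centre, Mrpl58, a peptidyl-tRNA hydrolase built into the large subunit, Mrps18c, Mrps30 and Mrps36 were called in no comparison, with values against Control between -0.45 for Mrps36 in Cpt2KO and 0.38 for Mrps30 in Cpt2KO. Of 5 mitoribosomal proteins with other names (Dap3, Ptcd3, Chchd1, Aurkaip1 and Gadd45gip1), Ptcd3 fell in Cpt2KO (-0.51), TKO (-0.30) and Cpt2PparaDKO (-0.40) and the others did not pass the test. The TKO call of Ptcd3 was lost in 5 of the 8 fits that left out 1 library.

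Genes that act around the mitochondrial ribosome were described from lists. Of 26 genes for mitoribosome assembly and rRNA modification, 6 rose and 4 fell in Cpt2KO, 4 and 3 in TKO and 5 and 4 in Cpt2PparaDKO. Of all genes tested, 33.4%, 27.4% and 32.5% were called in these comparisons, and the counts of this list and of those that follow are to be read against these shares. Among them the helicase Ddx28 rose in each (1.58, 1.495 and 1.15), and Trub2, a pseudouridine synthase, rose in Cpt2KO (0.69) and TKO (0.73). Of 19 mitochondrial translation factors, 1 rose and 3 fell in Cpt2KO, 1 and 5 in TKO and 0 and 5 in Cpt2PparaDKO. Gfm2, which recycles ribosomes, was at -0.54, -0.44 and -0.73, and Taco1, an activator of Cox1 translation, at -0.77, -0.55 and -0.82, all called. Both Cpt2KO calls held in all 16 alternatives, and the TKO and Cpt2PparaDKO calls of both genes were lost with total-count scaling. The Gfm2 call in TKO was also lost without the low count filter and without Control replicate 2. Of 20 mitochondrial aminoacyl-tRNA synthetases, 2 rose and 3 fell, 0 and 4, and 1 and 3 in the same order, with Aars2 at -0.69, -0.80 and -0.58. The Aars2 call in Cpt2PparaDKO was lost with total-count scaling. With total-count scaling the medians of the mitochondrial translation factors turned from -0.08, -0.15 and -0.18 to 0.13, 0.10 and 0.29.

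The mitochondrial ribosomal RNA mt-Rnr1 rose in Cpt2KO (0.69, adjusted p = 0.036 by edgeR), a call kept in 10 of 16 alternatives, and was lower in Cpt2PparaDKO than in Cpt2KO (-1.03, adjusted p = 0.0044). mt-Rnr2 was at 0.31 and -0.98 and did not pass the test in either. The mt-Rnr1 call in Cpt2KO was lost without Control replicate 1 or 2 or Cpt2KO replicate 2, among others. In Cpt2KO the mitochondrial ribosomal RNAs summed to 640 to 1690 CPM, highest in replicate 2, and the mitochondrial messenger RNAs to 44710 to 57794 CPM. Whether such counts follow the level of the ribosomal RNAs was not tested. Of 16 nuclear regulators of mitochondrial genes, 4 rose and 2 fell in Cpt2KO, 3 and 2 in TKO and 2 and 1 in Cpt2PparaDKO. Nrf1 rose in Cpt2KO (0.53), TKO (0.65) and Cpt2PparaDKO (0.43), Myc rose in these groups (2.05, 1.81 and 2.23), and Gabpa and Ppargc1a did not pass the test in any comparison with Control. The Nrf1 call in Cpt2PparaDKO was lost without both female libraries, without Control replicate 4 and without Cpt2PparaDKO replicate 4. Ppargc1b, a coactivator related to Ppargc1a, fell in TKO (-1.11) and in Cpt2PparaDKO (-0.97), the first lost without Control replicate 1 or 2 or TKO replicate 1 or 3, and the second without Control replicate 1 or 2 or Cpt2PparaDKO replicate 1, 2 or 4. Mycn fell in Cpt2KO and TKO, from 0.351 to 1.87 CPM in Control to 0 to 0.135 in Cpt2KO and 0.061 to 0.458 in TKO, where the call was lost without Control replicate 1 or 3 or TKO replicate 1 or 2. Tfam, which packages and transcribes mitochondrial DNA, fell in Cpt2PparaDKO against Control (-0.51) and against Cpt2KO (-0.35), the first kept in all alternatives but total-count scaling. Grpel2, a co-chaperone of protein import, rose in every mutant group (0.94, 2.01, 1.69 and 0.84 in the order Cpt1DKO, Cpt2KO, TKO and Cpt2PparaDKO) and was lower in Cpt2PparaDKO than in Cpt2KO (-1.17).

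**Figure D5:**
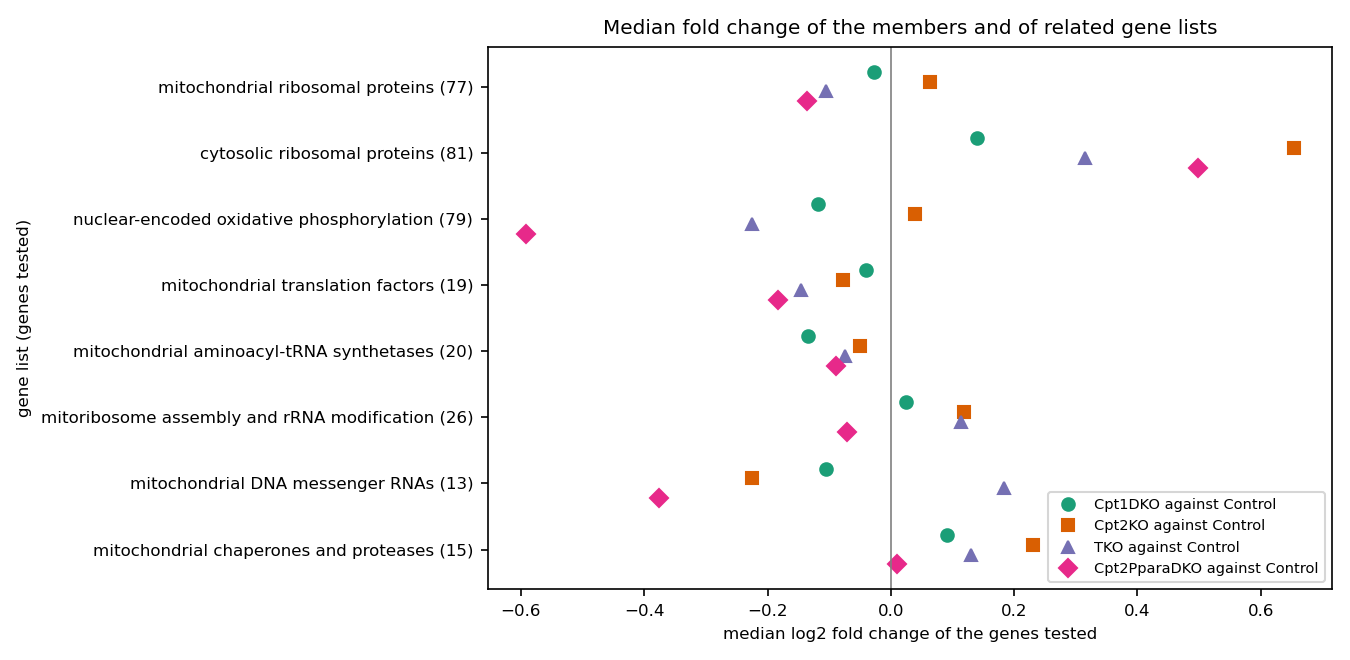
Median log2 fold change (horizontal axis, TMM scale) of the 77 members and of 7 related gene lists (vertical axis, genes tested in brackets) in the 4 comparisons with Control. The cytosolic ribosomal proteins lie right of 0 and the members close to 0; with total-count scaling the medians of the members are 0.13 in TKO and 0.35 in Cpt2PparaDKO and that of the oxidative phosphorylation genes in TKO is 0.01.

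The members were also set beside the proteins of the other ribosome and the complexes their ribosome serves. Of 81 cytosolic ribosomal proteins, 65 rose in Cpt2KO, 21 in TKO and 55 in Cpt2PparaDKO and none fell, with medians of 0.65, 0.32 and 0.50 beside 0.06, -0.10 and -0.14 for the members. With total-count scaling the medians of the cytosolic ribosomal proteins were 0.86, 0.56 and 0.98. These proteins have many near-identical pseudogenes, so their counts are uncertain. Of 79 genes for nuclear-encoded oxidative phosphorylation, 72 fell in Cpt2PparaDKO against Control and 70 against Cpt2KO, with medians of -0.59 and -0.61, where the members had 18 and 16 falls and medians of -0.14 and -0.21. With total-count scaling 9 and 44 of the nuclear-encoded oxidative phosphorylation genes fell, with medians of -0.11 and -0.33. In TKO 15 of them fell (median -0.22, and 0.01 with total-count scaling), and in Cpt2KO 5 rose and 3 fell. The lists were compared by these counts and medians, and the difference between lists was not tested.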

How the data were processed

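Livers of fasted mice were profiled in 20 RNA-seq libraries, 4 in each of 5 groups, and groups were taken from the genotype labels. The authors deposited raw counts of reads per gene, as whole numbers, in a table that also gives the deposited annotation values of gene position and length (another unit, bases). Per the labels' protocols, RNA came from frozen liver and a company prepared the libraries. HISAT2 and the build GRCm39 (mm39) are named in the submitters' processing notes, while a counting tool and strand setting are not given. No batch is given in the labels.

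Counts were tested with edgeR 4.0.16 in R 4.3.3 (filterByExpr with a minimum count of 10, TMM scaling, robust quasi-likelihood fit over all 20 libraries with group as the only term). P-values were two-sided and adjusted by Benjamini-Hochberg over all 15669 genes tested, and calls were made under an adjusted p of 0.05. Rose and fell are used of called genes only. The SE of a log2 fold change was derived from it and the F statistic. The interaction is the effect of Cpt2 loss with Cpt1a and Cpt1b lost (TKO against Cpt1DKO) minus that without (Cpt2KO against Control). Levels are CPM on TMM-scaled library sizes. Alternatives were other scalings, DESeq2 1.42.0, no filter, a replicate block, removal of each library's trend with gene length, the compared groups alone, leaving out each library, and leaving out both libraries with a female pattern. The procedure was tested on simulated counts, with changes set in Cpt2KO alone. These counts held no broad shift in composition, length tendency or sex pattern between libraries, so that test cannot speak to those features.

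Members were named by rule: the 5 called members with the largest rise and the 5 with the largest fall in each comparison, the 5 highest and 5 lowest per kilobase in Control, those missing the filter, those with a library far from its group, and fixed members (the S18 paralogs, Mrps30, Mrps36, Mrpl12, Mrpl10, Mrps12, Mrpl45 and Mrpl58). Other called members are given by name, with a value or a range. From related lists, up to 3 called genes with the largest change per comparison could be named. The members and lists were chosen with earlier results of these data known. Same-numbered libraries were not paired by the labels. Of 40 same-number pairs 4 had a correlation of deviations over 0.1 (range -0.2 to 0.23), beside -0.26 to 0.3 for the other pairs between groups. Counts of libraries within a group differed by more than sampling noise (chi-square per degree of freedom 11.5 to 151). Deposited FPKM values and the authors' own comparison tables were not used here.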

Additional observations from a re-analysis of the deposited data

Results flagged for a closer look

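Mrpl17 differed in its response to Cpt2 loss depending on Cpt1a and Cpt1b: the log2 fold change was 1.29 where Cpt1 was intact and 0.26 where it was labelled as lost, and the interaction term was -1.02 (adjusted p = 0.0016 by edgeR's quasi-likelihood test).

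In 8 groups of 4 libraries a single library lay far from the other 3, with a ratio of its gap from the nearest library to the range of the group above Dixon's critical value. Named members gave 160 groups to examine, and chance alone exceeds that value in about 1 of 20. The number found is thus no more than chance alone would give. Cpt2KO replicate 2 was high for Mrpl2 (56.4 CPM against 44.1 to 45.3, ratio 0.896) and Mrps7 (80.1 against 52.1 to 55.2, ratio 0.891), and it is the library with the highest summed level of the members. Cpt1DKO replicate 2 was low for Mrps27 (10.9 CPM against 16.8 to 17.8, ratio 0.86) and Mrps36 (4.51 against 8.06 to 8.62, ratio 0.864). Control replicate 3 was high for Mrpl48 (24.96 CPM against 20.9 to 21.2, ratio 0.921). In TKO, replicate 4 was low for Mrpl45 (18.7 CPM against 22.0 to 22.7, ratio 0.831) and replicate 3 was low for Mrps12 (23.4 against 25.2 to 25.5, ratio 0.849). Cpt2PparaDKO replicate 3 was high for Mrps36 (8.74 CPM against 7.09 to 7.34, ratio 0.848).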

How the results depend on the processing

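Of 61 calls of named members, 24 held in all alternatives, 38 in all fits that left out 1 library, and 2 changed sign, both with total-count scaling in Cpt2PparaDKO against Control (Mrpl14 0.0090, Mrpl45 0.029). The cause of the changes below was not tested. With total-count scaling the members called higher and lower were 1 and 0 in Cpt1DKO, 31 and 3 in Cpt2KO, 18 and 3 in TKO and 42 and 0 in Cpt2PparaDKO against Control, 10 and 0 in Cpt2KO and 2 and 0 in TKO against Cpt1DKO, 9 and 2 in Cpt2PparaDKO against Cpt2KO, and 0 and 4 for the interaction. Of all genes, in the same order, 6.04%, 37.1%, 34.5%, 54.0%, 15.2%, 7.06%, 32.9% and 2.74% were called. The medians of the members were then 0.080, 0.27, 0.13 and 0.35 against Control, 0.066 (TKO against Cpt1DKO) and 0.062 (Cpt2PparaDKO against Cpt2KO), and the median of all genes was 0.10, 0.20, 0.24 and 0.48 against Control, 0.10 and 0.13 against Cpt1DKO, and 0.29 for Cpt2PparaDKO against Cpt2KO.

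Without the low count filter the number lower was 0 in Cpt1DKO, 5 in Cpt2KO, 9 in TKO (median -0.060) and 8 in Cpt2PparaDKO against Control, 2 were higher and 0 lower in Cpt2KO and 0 lower in TKO against Cpt1DKO, and 0 were higher and 8 lower in Cpt2PparaDKO against Cpt2KO. With the length trend removed, 2 were higher in Cpt1DKO, 13 lower in Cpt2KO and the median in TKO was -0.045, 3 were lower in Cpt2KO and 2 in TKO against Cpt1DKO, 3 were higher and 8 lower in Cpt2PparaDKO against Cpt2KO, and 2 lower for the interaction. With the compared groups alone, 1 was lower in Cpt1DKO and 5 in Cpt2KO, 2 were higher and 0 lower in Cpt2KO and 2 lower in TKO against Cpt1DKO, 0 were higher and 4 lower in Cpt2PparaDKO against Cpt2KO, and 3 lower for the interaction. Without both female libraries, 10 were lower in Cpt2PparaDKO against Control, 12 higher in Cpt2KO and 1 higher and 2 lower in TKO against Cpt1DKO, and 6 lower for the interaction. With DESeq2's test 3 were lower in TKO against Cpt1DKO and 4 for the interaction, and with its size factors in edgeR 0 were higher in Cpt2PparaDKO against Cpt2KO and 3 lower for the interaction.

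With the replicate number as a block, the members called higher and lower were 1 and 1 in Cpt1DKO, 11 and 6 in Cpt2KO, 4 and 12 in TKO and 4 and 16 in Cpt2PparaDKO against Control, and 0 and 14 in Cpt2PparaDKO against Cpt2KO. The labels do not pair libraries by number. Of 40 same-number pairs 4 had a correlation of deviations over 0.1 (range -0.2 to 0.23), beside a range of -0.26 to 0.3 for the other pairs between groups. Of 20 libraries 5 correlated best with their own number. These correlations cannot exclude a weak effect shared by libraries of the same number.

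Leaving out 1 library gave these lowest and highest values of members higher, members lower and median: Cpt1DKO against Control 1 to 1, 0 to 3 and -0.04 to 0.01. Cpt2KO gave 7 to 17, 5 to 11 and -0.02 to 0.10, TKO 4 to 4, 8 to 13 and -0.14 to -0.054, and Cpt2PparaDKO 2 to 4, 7 to 16 and -0.13 to -0.08. Against Cpt1DKO, Cpt2KO gave 2 to 10, 0 to 3 and -0.0045 to 0.14, and TKO 0 to 0, 0 to 3 and -0.13 to -0.03. TKO against Cpt2KO gave 0, 0 and -0.22 to -0.063, Cpt2PparaDKO against Cpt2KO 0 to 3, 8 to 21 and -0.26 to -0.13, and the interaction 0, 1 to 4 and -0.21 to -0.04. Depth limits mainly the members with low counts: the mean count of a tested member ranged from 119 to 2144 per library.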
